A study of Arabidopsis thaliana with 24 samples.

Results

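The genes described here encode pentatricopeptide repeat (PPR) proteins that the deposited annotation places in the chloroplast. A gene was taken when its description named both the pentatricopeptide repeat and the word chloroplastic, a rule that uses no measured value and gave 57 of the 27782 genes in the table. A further 137 PPR genes are described as mitochondrial only and 232 with neither word, which makes 426 in all; 1 of the 57, CRR28, carries both words. Polyadenylated RNA of whole Arabidopsis thaliana seedlings aged 14 days, all in the Col-0 background, was sequenced in 24 libraries, 3 for each of 8 groups.

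Batches 1 to 3, labelled 2018, held wild type (WT), the dne1 insertion mutant Salk132521, and the lines OE1 and OE2, which overexpress a GFP fusion of the endoribonuclease DNE1 from the 35S promoter, which is active in most plant tissues. Batches 4 to 6, labelled 2019, held another WT group and the libraries labelled vcs-6, a mutant of the decapping scaffold VARICOSE. Batches 7 to 9, labelled 2019 as well, held a WT group of their own and a single line, T3_1, that overexpresses GFP-DNE1 with the D153N substitution. Each group is thus 1 line, and the labels call its 3 libraries biological replicates without saying more about the plants, so every p-value measures the spread between these libraries only. In bulk RNA of whole seedlings, fewer cells of a type and less RNA per cell cannot be told apart.

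PPR proteins are encoded in the nucleus and imported into organelles, where tandem helical repeats read a stretch of RNA base by base. Those of the P class mostly protect, cleave, splice or help translate organelle transcripts, while those of the PLS class guide C-to-U editing, often through a DYW domain named after its last amino acids. In leaves they are needed for the expression of plastid genes of photosynthesis, transcription and translation, and loss of many of them gives pale seedlings or arrested embryos.

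The labels were checked against the genes they name. The normalized count of DNE1 (AT2G15560) was 309 ± 50.1 (SD, n = 3) in dne1 against 1462 ± 146 in WT, and it averaged 21228 in OE1, 19980 in OE2 and 15781 in the D153N line. VCS (AT3G13300) was not low in the libraries labelled vcs-6 but rose there by 0.62 ± 0.12 on the log2 scale (SE, limma adjusted p = 0.0041), which checks no loss of function, so the group is named by its label throughout. Recovered reads ran from 22611653 to 70561391 per library, and the 57 genes together took 21656 to 66055 reads of each. The 2018 and 2019 libraries were scaled separately by the authors, so lines are compared only with WT of the same batches.

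All 57 genes were listed in every library and all passed the filter on low values (10 or more normalized counts in 3 or more libraries). As a mean over the libraries of both years, their levels per kb of transcript spanned 15 to 1459 normalized counts, with a median of 139, at the 34.6th percentile of 22082 genes past the same filter. On this scale the median was 43.9 for the mitochondrial and 39.4 for the remaining PPR genes. GUN1, which takes part in signalling from the plastid to the nucleus, was the highest member per kb in each year, at 1611 normalized counts in 2018 and 1306 in 2019. It was followed in 2018 by MRL1 (stability of the rbcL mRNA for the large Rubisco subunit) at 1311, SVR7 (expression of ATP synthase subunits) at 1265, AT5G46580 (SOT1, plastid ribosomal RNA maturation) at 1263 and PPR2 at 1196. In 2019 the next were AT5G46580 at 731, PPR2 at 700.1, MRL1 at 680 and AT5G13770 at 656, while SVR7 stood at 568. The lowest in 2018 were AT5G52850 at 37.8, RPF3 at 33.0, OTP80 at 23.0, AT4G35130 at 21.3 and DOT4 at 20.2 normalized counts per kb. In 2019 they were AT5G52850 at 27.2, CRR4 at 21.1, AT4G35130 at 14.5, OTP80 at 13.3 and DOT4 at 9.76, with RPF3 at 27.5. DOT4, a factor for editing of the plastid rpoC1 transcript, rested on 7 to 93 reads per library and OTP80 on 13 to 62. RPF3 shares 46.6% of its words of 31 bases with other transcripts and is uncertain for that reason. RPF3, BIR6 and OTP87 are kept by the rule although they are studied as mitochondrial factors.

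In the libraries labelled vcs-6, the chloroplast PPR genes as a group were lower than in WT. By limma at an adjusted p under 0.05, 28 of 57 fell and 2 rose, beside a background of 24.8% of 21351 tested genes that fell and 26.7% that rose. Their median log2 change was -0.39, against 0.00 for all genes tested. The libraries of the groups did not overlap for 35 members on the low side and 4 on the high side, where 30.6% and 31.3% of tested genes were separated in that way. The 57 genes together held 0.0620% to 0.0670% of reads in the 3 libraries labelled vcs-6 and 0.0841% to 0.0879% in their WT. The authors' deposited table has 30 of the 57 lower and 2 higher in vcs. Of all 24433 genes there, 6122 were lower and 6544 higher, 51.8% in either direction. Without the WT library of batch 4, 18 members fell and 1 rose, where 4049 genes fell and 4852 rose (42.3% in either direction). Both edgeR and DESeq2 on recovered reads called 30 members, beside 51.3% and 52.5% of genes.

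**Figure D1:**
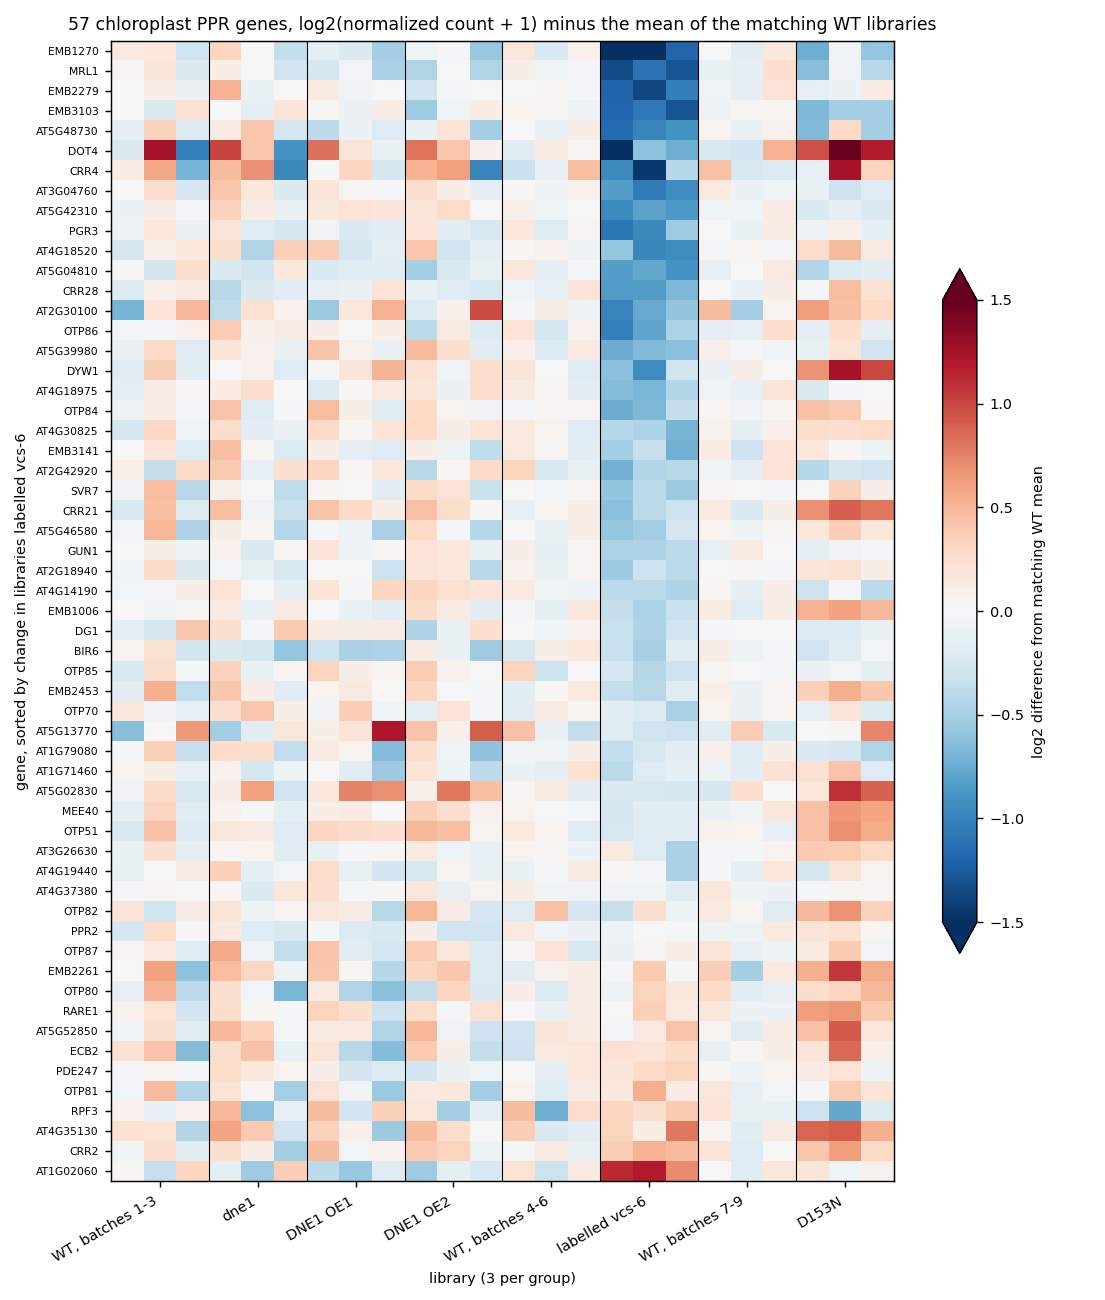
Heat map of the 57 chloroplast PPR genes (rows, sorted by their change in the libraries labelled vcs-6) in 24 libraries (columns, 3 per group); colour gives log2(normalized count + 1) minus the mean of the WT libraries of the same batches, cut at 1.5 in each direction. Blue fills most of the vcs-6 columns, where 28 genes fell and 2 rose, while the D153N columns hold 10 genes that rose and 1 that fell.

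The members on the role list of factors for the stability, processing or translation of plastid transcripts fell, 5 of 5, with a median of -0.86. Over the whole list of 7, which holds 2 genes that are not members, 6 fell and the median was -0.52. MRL1 stood at 3454, 3106 and 3218 normalized counts in WT and at 1281, 1514 and 1323 in the libraries labelled vcs-6. Every library of that group lay far below every WT library, a log2 change of -1.25 ± 0.11 (SE; limma adjusted p = 9.1e-05). PGR3, which acts on petL and ndh transcripts, had 1435, 1125 and 1323 in WT against 607, 658 and 887, a change of -0.86 ± 0.17 (adjusted p = 0.0039) with no overlap. AT5G42310 (CRP1, known from maize to act on petB, petD and psaC mRNAs) changed by -0.87 ± 0.11 (adjusted p = 4e-04). SVR7 went from 1555, 1504 and 1586 to 1027, 1169 and 1049, a change of -0.52 ± 0.10 (adjusted p = 0.0036), and AT5G46580 changed by -0.45 ± 0.12 (adjusted p = 0.017). The groups stayed apart for these 3 genes too, but the call of AT5G46580 was lost in 3 of 16 alternative settings. PGR3 and AT5G42310 overlap a gene on the opposite strand, and since the strand setting of read counting is not given in the sources used here, their values are uncertain.

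Among the 6 members on the role list of factors for plastid intron splicing, 3 fell and none rose, as in the whole list of 7. The shares over all tested genes were 24.8% and 26.7%. EMB3103 had 1846, 1813 and 1698 normalized counts in WT and 780, 846 and 726 in the libraries labelled vcs-6, a change of -1.19 ± 0.10 (adjusted p = 9.9e-05). AT5G04810 (PPR4, trans-splicing of the rps12 transcript) had 2695, 2167 and 2338 in WT against 1346, 1406 and 1290, a change of -0.83 ± 0.11 (adjusted p = 7e-04). AT4G18520 (PDM1, processing of the rpoA transcript and splicing) changed by -0.83 ± 0.19 (adjusted p = 0.0075). In each of these 3 genes all libraries labelled vcs-6 were below all WT libraries. OTP51, OTP70 and EMB2453 gave -0.19, -0.29 and -0.32 and did not pass the test. EMB3103 overlaps a gene on the opposite strand.

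Of the 14 members on the role list of editing factors, 4 were lower and 1, CRR2, was higher, with a median of -0.08. Of all tested genes 24.8% fell and 26.7% rose. The list leaves out DYW1, which was lower, and DOT4, which was not called. It also holds 4 genes that the rule does not take, and over all 18 there were 7 lower and 1 higher, with a median of -0.39. CRR28 (ndhB and ndhD editing) changed by -0.78 ± 0.16 (adjusted p = 0.0054), OTP86 by -0.76 ± 0.20 (adjusted p = 0.015), OTP84 by -0.59 ± 0.15 (adjusted p = 0.014) and CRR21 (ndhD) by -0.45 ± 0.15 (adjusted p = 0.038). CRR4, which is needed to create the ndhD start codon, had 34.2, 39.9 and 59.9 normalized counts in WT and 22.0, 15.3 and 32.1 in the libraries labelled vcs-6, a change of -0.94 ± 0.35 that missed the threshold (adjusted p = 0.057). CRR2 was placed among the editing factors in the role list, although it is known for cleavage of the rps7-ndhB transcript. It rose, from 178, 196 and 166 in WT to 232, 258 and 251, by 0.46 ± 0.14 (adjusted p = 0.028). Leaving out 1 library at a time ended the call of CRR2 in 4 of 6 cases, that of CRR21 in 5 of 6 and that of OTP86 in 2 of 6. The call of OTP84 was lost in 1 of 16 alternative settings. The CRR28 gene overlaps another on the opposite strand.

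Among the remaining members with a role, GUN1 had 5306, 4546 and 5152 normalized counts in WT and 3599, 3611 and 3798 in the libraries labelled vcs-6, which did not overlap and gave a change of -0.44 ± 0.10 (adjusted p = 0.0081). DG1, a factor for transcription by the bacterial-type plastid polymerase, changed by -0.37 ± 0.11 (adjusted p = 0.028). EMB2279, required for embryo development, fell by more, from 529, 534 and 521 to 229, 204 and 257, a change of -1.20 ± 0.13 (adjusted p = 0.00025). AT2G18940, the counterpart of maize PPR10 that protects plastid mRNA ends in that species, changed by -0.43 ± 0.11 (adjusted p = 0.015). The call of DG1 was lost in 6 of 16 alternative settings, 4 of them with 1 library left out. That of AT2G18940 was lost in 4 of 16, that of GUN1 in 1 of 16 and that of EMB2279 in 0 of 16.

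The widest fall of all 57 was that of EMB1270, an embryo-essential gene with 619, 470 and 575 normalized counts in WT and 148, 188 and 240 in the libraries labelled vcs-6. Its change was -1.54 ± 0.20 (adjusted p = 0.00058), and its groups were far apart. AT5G48730 changed by -1.02 ± 0.13 (adjusted p = 0.00057) and AT3G04760 by -0.93 ± 0.11 (adjusted p = 0.00029). EMB1270 and AT5G48730 overlap genes on the opposite strand. The largest rise was that of AT1G02060, with 299, 206 and 281 in WT and 563, 593 and 423 in the libraries labelled vcs-6. Every library of the latter was above every WT library, a change of 1.01 ± 0.20 (adjusted p = 0.0038).

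**Figure D2:**
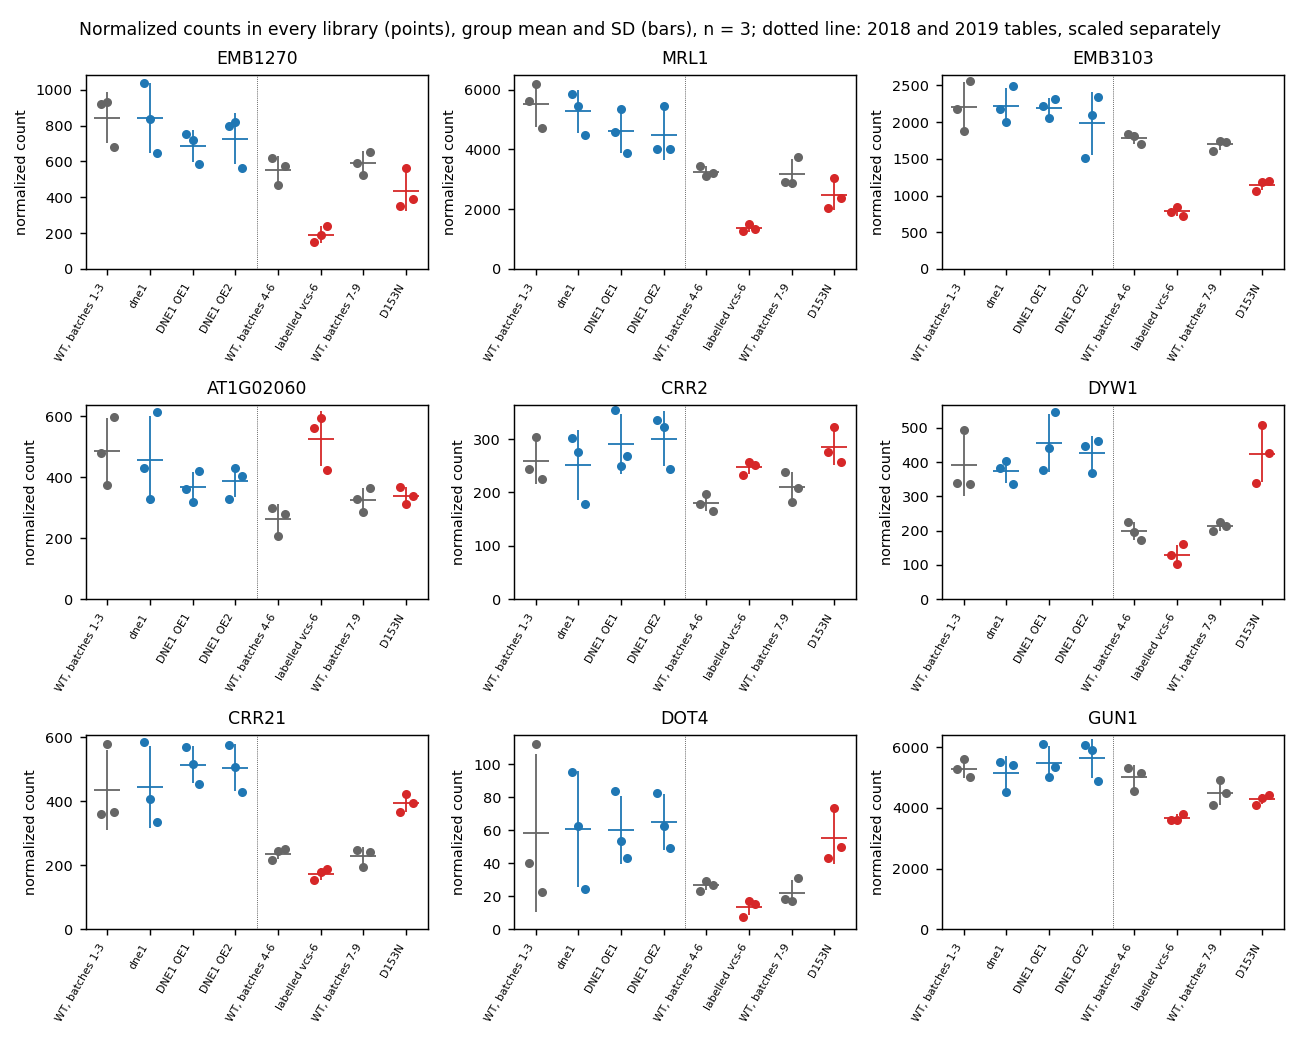
Normalized counts (vertical axes, from 0) of 9 chloroplast PPR genes in the 3 libraries of each of 8 groups; bars give the mean and SD, grey marks WT, blue the other 2018 lines and red the other 2019 lines. EMB1270, MRL1 and EMB3103 are low in the libraries labelled vcs-6, AT1G02060 and CRR2 are high there, and DYW1, CRR21 and DOT4 are high in the D153N line.

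Other PPR genes gave other counts. Of 131 tested mitochondrial PPR genes, 20 rose and 6 fell in the libraries labelled vcs-6, with a median log2 change of 0.20. Of 220 with neither word in the description, 9 rose and 24 fell, with a median of 0.00. These are counts beside each other, and the difference between the sets was not tested.

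**Figure D3:**
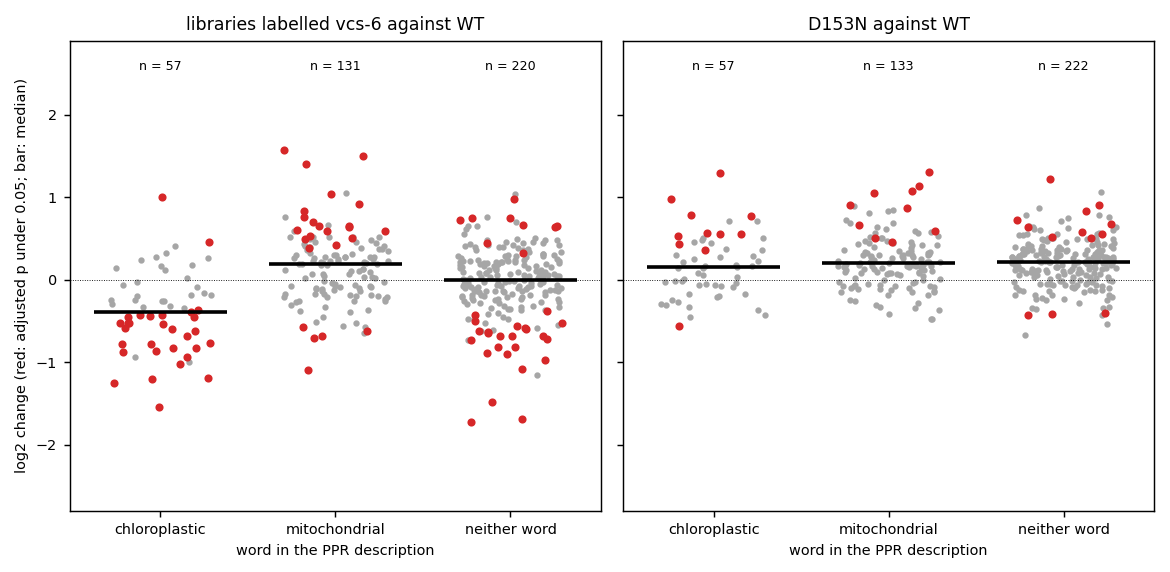
Log2 change against WT (vertical axis) of PPR genes grouped by the organelle named in their description, in the libraries labelled vcs-6 (left) and the D153N line (right); each point is a gene, red where limma's adjusted p is under 0.05, and the bar is the median. On the left the median is -0.39 for chloroplastic and 0.20 for mitochondrial genes, and on the right the medians are 0.15, 0.20 and 0.22.

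Genes that work beside the chloroplast PPR proteins were lower as well. Over 6 lists of plastid RNA factors that are not PPR proteins, 45 of 50 tested genes fell and 1 rose. Among partners of RNA editing 4 of 5 fell, for example MORF9 by -0.65 ± 0.12 (adjusted p = 0.003). Of the chloroplast ribonucleoproteins, which coat and stabilise plastid mRNAs, 8 of 8 fell, and CP33 changed by -1.84 ± 0.17 (adjusted p = 0.00011). All 7 splicing factors of other families fell, CFM2 by -1.40 ± 0.13 (adjusted p = 0.00012), and so did 8 of 9 ribonucleases and stability factors, with CSP41A at -2.21 ± 0.17 (adjusted p = 5.8e-05). Sigma factors and plastid RNA polymerases gave 6 lower and 1 higher of 8, and polymerase-associated proteins 12 lower of 13. The gene that rose, AT5G15700, encodes a phage-type RNA polymerase and changed by 0.48 ± 0.14 (adjusted p = 0.019).

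Cell type markers moved in the same libraries. All 5 leaf mesophyll markers fell, and their summed level was 532270 to 731300 normalized counts in the libraries labelled vcs-6 against 1422662 to 1707947 in WT. The 4 stomatal lineage markers fell too, from sums of 825 to 1006 down to 151 to 188. Of the 5 markers of dividing cells 4 rose (sums of 5725 to 7277 against 2423 to 2975), as did 4 of 5 seed and embryo markers (1531 to 6698 against 577 to 1093) and both tested flower markers (155 to 181 over 3 genes against 68.2 to 77.7). Root markers gave 1 higher and 2 lower of 7 (4252 to 6938 against 3955 to 5407). No marker was at 0 in all libraries of a group. The part of these shifts in the changes of the PPR genes was not tested.

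Some values of the vcs-6 comparison depended on scaling. With libraries scaled by their total reads the median of all genes moved to 0.12. There 19 members fell and 2 rose with a member median of -0.27, beside 4280 genes that fell and 6496 that rose (50.5%). With each library's trend on transcript length and GC content removed, 18 members fell and 4 rose, with a median of -0.18. Of all genes 4798 then fell and 5865 rose (50.2%).

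In the D153N line more members rose than fell. By limma 10 of 57 members rose and 1 fell, beside a background of 9.09% of 21124 tested genes that rose and 6.84% that fell, and the median log2 change was 0.15 against 0.00 for all genes tested. All libraries of the line were above all WT libraries for 19 members and below for 9, where the background is 20% and 19.5%. The other PPR genes had medians of similar size, 0.20 for 133 mitochondrial genes, of which 10 rose and none fell, and 0.22 for 222 with neither word, of which 10 rose and 3 fell. Over the 6 lists of plastid RNA factors that are not PPR proteins, 0 of 50 tested genes rose and 7 fell. The authors' deposited table has 12 of the 57 higher and 1 lower, beside 2588 higher and 2193 lower of 22856 genes. In either direction 22.8% of members and 20.9% of all genes were called there. On recovered reads edgeR called 11 members (16.5% of genes) and DESeq2 12 (21.9%).

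The largest rise was that of DOT4, with 18.2, 17.3 and 31.2 normalized counts in WT and 43.0, 73.4 and 49.8 in the D153N line. The groups did not overlap, and the change was 1.29 ± 0.32 (adjusted p = 0.039). DYW1, which supplies the editing domain that CRR4 lacks at the ndhD start codon, had 200, 225 and 213 in WT and 340, 507 and 428 in the D153N line. Every library of the line was well above WT, a change of 0.98 ± 0.16 (adjusted p = 0.013). CRR21 went from 249, 196 and 242 to 366, 424 and 394, a change of 0.79 ± 0.13 (adjusted p = 0.014) with a similar gap between the groups. CRR4 itself had 48.4, 29.9 and 30.5 in WT and 32.5, 84.6 and 44.9 in the line, which overlapped, a change of 0.48 ± 0.39 (adjusted p = 0.42).

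The 2 editing factors of the role list that rose were CRR21 and RARE1 (accD editing, 0.56 ± 0.13, adjusted p = 0.036), of 14. Of all tested genes 9.09% rose. Splicing factors split. OTP51, needed for splicing of ycf3 intron sequence, had 482, 477 and 422 normalized counts in WT and 624, 742 and 675 in the D153N line. It rose by 0.56 ± 0.11 (adjusted p = 0.02) with no overlap. EMB2453 (PPR5, known for the trnG precursor) rose by 0.44 ± 0.10 (adjusted p = 0.033). EMB3103 fell, from 1607, 1749 and 1737 to 1065, 1182 and 1192, by -0.57 ± 0.09 (adjusted p = 0.01), and was the only member called lower in the D153N line. The other risers were AT4G35130 (0.78 ± 0.20, adjusted p = 0.045), MEE40 (0.56 ± 0.12, adjusted p = 0.026), EMB1006 (0.54 ± 0.12, adjusted p = 0.027) and AT3G26630 (0.36 ± 0.08, adjusted p = 0.029). EMB1006 overlaps a gene on the same strand. None of the 5 stability or translation factors passed the test, and MRL1 gave -0.37 ± 0.17 (adjusted p = 0.18).

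Most D153N calls lay near the threshold. Within batches, all 11 called members kept their sign in all 3, with DYW1 higher by 0.77, 1.17 and 1.00 and EMB3103 lower by -0.59, -0.56 and -0.54 in batches 7, 8 and 9. With the batch number as a replicate block, 5 members rose and 1 fell, where 1365 genes rose and 760 fell (10.1%). The calls of DOT4 (adjusted p = 0.064), AT4G35130 (0.09), RARE1 (0.055), EMB1006 (0.057), EMB2453 (0.073) and AT3G26630 (0.07) were then lost, and AT5G02830 was newly called (0.71, adjusted p = 0.033, against 0.096 without the block). AT5G02830 overlaps genes on the opposite strand. The D153N library of batch 8 was the shallowest of all and held the highest share of reads on the members among the 2019 libraries, 0.105% against 0.0813% to 0.0901% in WT. Without it 2 members rose and 3 fell, where 1063 genes rose and 640 fell (8.13%). Without the D153N library of batch 9 none rose and 1 fell, where 827 genes rose and 315 fell (5.46%). Without the WT library of batch 7 there were 2 members higher and 1 lower, beside 889 genes higher and 467 lower (6.46%). Leaving out that of batch 8 gave the same member counts, beside 868 genes higher and 239 lower (5.26%). Without the WT library of batch 9 no member was called by limma, where 3.58% of genes still were. In the D153N line 4 of 5 markers of dividing cells rose (sums of 3803 to 5232 against 2378 to 2511 in WT) and 2 of 5 leaf mesophyll markers fell (1169291 to 1393497 against 1245438 to 1529382). Of the seed and embryo markers 3 were tested and 2 fell, with sums over 5 genes of 21.2 to 199 against 562 to 643. None of 4 stomatal (794 to 1243 against 740 to 821) and none of 3 flower markers (179 to 207 against 134 to 168) passed the test, and 1 of 7 root markers fell (5578 to 7275 against 5478 to 7386). Their part in the changes of the PPR genes was not tested.

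A set of 7 members ends in codons for aspartate, tyrosine and tryptophan, the signature of the DYW editing domain, among 59 such genes of 27444 nuclear protein-coding genes in RefSeq TAIR10.1. The last 18 bases of their coding sequences are shown, beside those of DOT4 and CRR21, which end differently. Capitals mark the DYW codons and the stop codon in the 7 genes and only the same positions in DOT4 and CRR21.
OTP82: tgcaatGACTACTGGTAG
DYW1: tgtggaGATTATTGGTAG
CRR28: tgtttaGACTACTGGTAG
CRR2: tgtggaGATTACTGGTAA
EMB2261: tgtaatGATTATTGGTGA
OTP84: tgtggaGACTATTGGTGA
RARE1: tgcaacGATTACTGGTGA
DOT4: tgcagaGGTTTCTGGTGA
CRR21: ggtacaGGTTCCAAATGA
In the D153N line the 7 genes with the DYW codons had log2 changes between 0.22 and 0.98 with a median of 0.51, and 2 of them, DYW1 and RARE1, passed the test. The other 50 members had a median of 0.07, with 8 higher and 1 lower, and of all tested genes 9.09% rose. The DYW codons also end 13 mitochondrial and 33 of the remaining PPR genes, whose changes were not set apart by ending. The match was exact and left out OTP81, OTP85, AT4G37380, AT4G35130 and EMB3141, whose ends differ from it in 1 codon. Of these only AT4G35130 was called higher in the D153N line. OTP85 had 141, 138 and 135 normalized counts in WT and 130, 134 and 124 in the line, while OTP81, AT4G37380 and EMB3141 overlapped WT. In the libraries labelled vcs-6 the 7 genes with the exact codons ran from -0.78 to 0.46, with 3 lower (DYW1, CRR28 and OTP84) and 1 higher (CRR2). Of the other 50 members 25 were lower and 1 higher there, beside 24.8% and 26.7% of all tested genes. The sequences shown were chosen with the changes known, and they are a description.

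The difference between the effects was tested directly. In a fit of the 12 libraries of batches 4 to 9, the vcs-6 effect was lower than the D153N effect for 28 of 57 members and higher for 1, beside 14.7% and 15.2% of 21805 genes, and the median difference was -0.57 against 0.01 for all genes. DOT4 had the widest difference at -2.29 ± 0.48 (adjusted p = 0.0046), followed by DYW1 at -1.60 ± 0.27 (adjusted p = 0.0012), CRR21 at -1.24 ± 0.19 (adjusted p = 0.00075), AT2G30100 at -1.24 ± 0.31 (adjusted p = 0.011) and EMB2279 at -1.17 ± 0.18 (adjusted p = 0.00075). The exception was AT1G02060 at 0.95 ± 0.24 (adjusted p = 0.013).

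A group of 3 members passed both tests in opposite directions. DYW1, CRR21 and EMB1006 fell in the libraries labelled vcs-6, by -0.62, -0.45 and -0.39, and rose in the D153N line, by 0.98, 0.79 and 0.54. They make up 3 of the 28 that fell and 3 of the 10 that rose. Of all 20836 genes tested in both comparisons, 83 had that combination, while 1311 rose in both and 890 fell in both. EMB3103 was the sole member called lower in both, and none was called higher in both. Across the 57 genes the log2 changes of the comparisons, which share no library, correlated at a Pearson r of 0.29 and a Spearman rho of 0.35, against 0.43 and 0.45 across all genes. These are descriptions across genes, which are not independent.

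**Figure D4:**
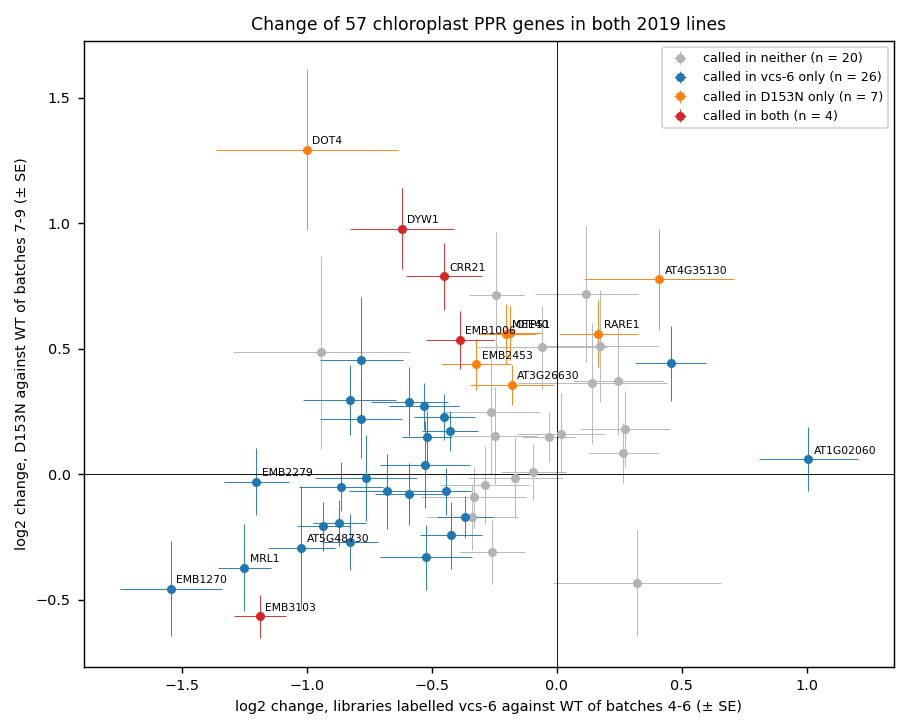
Log2 change of each of the 57 chloroplast PPR genes in the libraries labelled vcs-6 (horizontal axis) and in the D153N line (vertical axis), each against its own WT, with SE bars; colours mark in which comparison limma called the gene. The upper left field holds 24 genes, DOT4, DYW1, CRR21 and EMB1006 among them, and EMB3103 is the red point at the lower left.

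In dne1, OE1 and OE2 no chloroplast PPR gene passed the test. By limma 0 of 57 members were called in dne1 (background 0.0185% of 21631 genes), 0 in OE1 (0.139%), 0 in OE2 (0.171%) and 0 for the mean of both overexpressors (0.365%). None of the 57 reached an unadjusted p under 0.05 in any of these comparisons, where 352 of all genes did in dne1, 1488 in OE1, 1378 in OE2 and 1864 for the mean of both. On recovered reads edgeR and DESeq2 called 0 members as well. The tools called 0.0185% and 0.0324% of genes in dne1, 0.0786% and 0.962% in OE1, 0.129% and 0.796% in OE2, and 0.24% and 1.56% for the mean of both. Log2 changes ran from -0.35 to 0.27 in dne1, from -0.43 to 0.53 in OE1 and from -0.31 to 0.47 in OE2, with a median SE of 0.20 in these fits, which leave out the batch. With the batch number as a replicate block still 0 members were called, while the share of all genes called was 0.0185% in dne1, 1.24% in OE1, 1.17% in OE2 and 2.47% for the mean of both. The lowest adjusted p of a member under the block was that of AT5G02830 for the mean of both overexpressors, at 0.13. The lowest p in dne1 was that of BIR6, with 268, 302 and 211 normalized counts in WT and 221, 215 and 172 in dne1, which overlap. Its change was -0.35 ± 0.20 (adjusted p = 1), while OE1, which shares the WT libraries, gave -0.43 ± 0.20 (adjusted p = 0.74). AT5G02830, which overlaps genes on the opposite strand, had the lowest p for both overexpressors together, at 0.48 ± 0.23 (adjusted p = 0.59). The authors' deposited table calls 2 members higher and 0 lower for DNE1 overexpression, where 942 genes rose and 407 fell (5.74%). It calls none in dne1, where 0.0736% of all genes were called. The effect of D153N minus that of the overexpressors of unaltered DNE1 was tested over all 24 libraries, and 0 of 57 members passed (background 2.15%). At an unadjusted p under 0.05 there were 7 members, beside 3416 of 22214 genes. By edgeR 0 members were called (2.2% of genes), and by DESeq2 1, DYW1 (4.61% of genes, adjusted p = 0.046). With length and GC trends removed limma called 1 member, EMB1006, where 1.5% of genes were called. The lowest p in limma was that of EMB1006, at 0.54 ± 0.16 (adjusted p = 0.088), before DYW1 at 0.79 ± 0.25 (adjusted p = 0.11) and AT4G14190 at -0.45 ± 0.16 (adjusted p = 0.16).

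Within the 2018 libraries more members were called between batches than between lines. The labels number the batches without saying what they share. With group as a term, 20 of 57 members were lower in batch 3 than in the mean of batches 1 and 2 and 5 were higher, beside 14.2% and 15.4% of 21631 genes, and the median difference was -0.20. CRR4 had 91.3 and 127 normalized counts in the WT libraries of batches 1 and 2 and 51.6 in batch 3. The same order held in dne1 (117, 136 and 42.5), OE1 (82.4, 105 and 70.6) and OE2 (122, 130 and 41.9), so each batch 3 library was the lowest of its line, a difference of -1.14 ± 0.19 (limma adjusted p = 0.0023). DOT4 differed by -1.07 ± 0.31 (adjusted p = 0.025) and ECB2, another editing factor, by -0.64 ± 0.14 (adjusted p = 0.0069). AT5G13770 went the other way, with 814, 1280 and 1973 in WT, 889, 1126 and 1434 in dne1, 1351, 1450 and 2951 in OE1 and 1717, 1341 and 2382 in OE2 for batches 1, 2 and 3. Batch 3 was highest in all 4 lines, a difference of 0.80 ± 0.13 (adjusted p = 0.0025). Other PPR genes were lower in batch 3 too, 29 of 134 mitochondrial and 49 of 224 with neither word. Between the WT groups of 2019, batches 7 to 9 against batches 4 to 6, limma called 0 of 57 members (background 0.00917%), a comparison not run with edgeR or DESeq2. It sets 3 libraries against 3, with a median member SE of 0.15, so its count cannot be set against that of batch 3. All libraries of batches 7 to 9 were above those of batches 4 to 6 for 10 members and below for 4, beside 9.62% and 10.1% of genes. At an unadjusted p under 0.05 there were 8 members, beside 2491 of 21805 genes. Both comparisons in this paragraph were added after the data were seen.

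Gene structure was compared with the changes as a description. The longest transcript had a single coding exon in 37 of 57 members (64.9%), against 23.9% of all nuclear protein-coding genes, and between 2 and 19 in the others. In the libraries labelled vcs-6, 13 of 37 single-exon members fell and 2 rose, with a median of -0.26. Of 13 members with 2 to 4 coding exons 9 fell, with a median of -0.44, and of 7 with 7 or more coding exons 6 fell, with a median of -0.83. All tested genes with these exon numbers had medians of 0.15, 0.10 and -0.16. Of these genes 19%, 22% and 32% fell in the libraries labelled vcs-6, and 30%, 32% and 18% rose, in the same order. In the D153N line the member medians were 0.22, 0.04 and -0.17, beside 0.12, 0.08 and -0.13 for all tested genes. The rank correlation of the change with the number of coding exons across the 57 genes was -0.40 for vcs-6 and -0.31 for D153N, but it was also -0.37 between the WT groups of 2019, where no line differs. Across all tested nuclear protein-coding genes it was -0.15 for vcs-6, -0.24 for D153N and -0.08 between the WT groups.

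**Figure D5:**
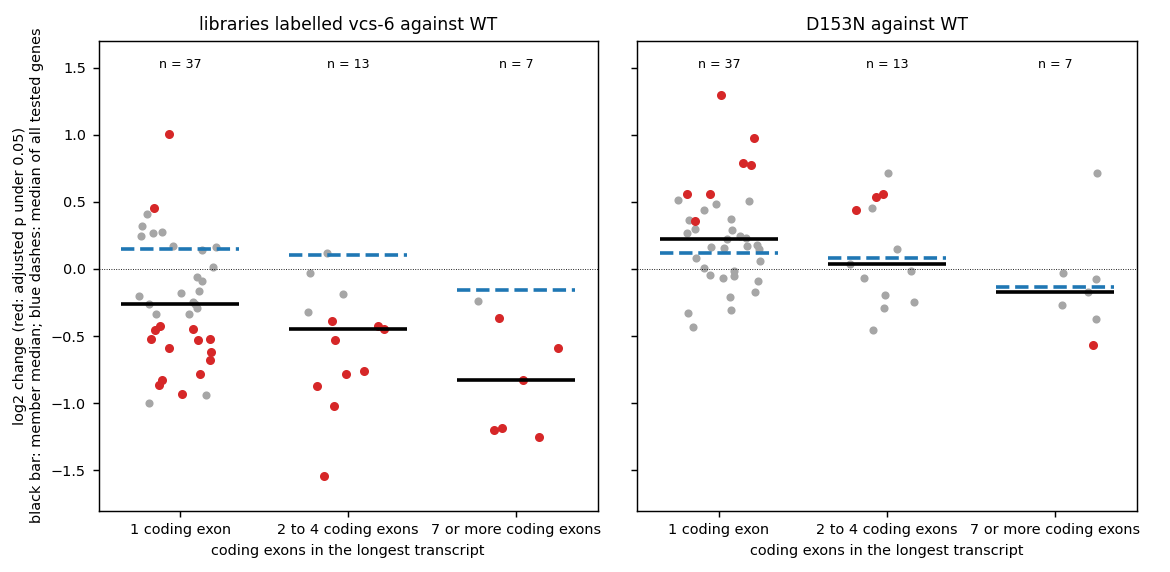
Log2 change against WT (vertical axis) of the 57 chloroplast PPR genes by number of coding exons, in the libraries labelled vcs-6 (left) and the D153N line (right); points are genes, red where limma's adjusted p is under 0.05, black bars their medians and blue dashes the medians of all tested genes with the same exon numbers. The black bars descend from -0.26 to -0.83 on the left and from 0.22 to -0.17 on the right.

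Promoter windows were searched for the motifs TGGGCC and TGGGCT, known as site II elements of many genes for organelle and ribosomal proteins, in the 250 bases before the annotated gene start and on both strands, with overlapping matches allowed. One or both occurred before 23 of 57 members (40.4%), 24.8% of the mitochondrial and 33.2% of the remaining PPR genes and 19.2% of all 27444 nuclear protein-coding genes. The telo box AAACCCTA occurred before 3 members (5.26%, against 4.49%) and the G box CACGTG before 4 (7.02%, against 6.49%). For 29 members the window holds part of another gene, and 6 of these have a site II match, against 17 of the 28 with a free window. In the libraries labelled vcs-6 the 2 members that rose both had the motif, as did 12 of the 28 that fell. Of all tested genes 28.3% with the motif and 26.3% without it rose there, and 22.3% and 25.7% fell. In the D153N line 1 of 23 members with it and 9 of 34 without it rose, while of all tested genes 13.6% with it and 7.64% without it did. The windows of the 2 genes that rose in the libraries labelled vcs-6, AT1G02060 (chr1:363143-363392, minus strand) and CRR2 (chr3:17234046-17234295, minus strand), and of EMB3103 (chr1:3639585-3639834, plus strand), which fell in both lines, are given 5′ to 3′ from RefSeq TAIR10.1 with the site II matches on either strand in capitals.
AT1G02060: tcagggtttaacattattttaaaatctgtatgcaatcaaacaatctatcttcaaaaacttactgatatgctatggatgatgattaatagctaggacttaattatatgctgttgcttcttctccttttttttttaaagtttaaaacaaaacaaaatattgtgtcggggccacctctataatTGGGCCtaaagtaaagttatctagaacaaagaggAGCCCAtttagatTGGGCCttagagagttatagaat
CRR2: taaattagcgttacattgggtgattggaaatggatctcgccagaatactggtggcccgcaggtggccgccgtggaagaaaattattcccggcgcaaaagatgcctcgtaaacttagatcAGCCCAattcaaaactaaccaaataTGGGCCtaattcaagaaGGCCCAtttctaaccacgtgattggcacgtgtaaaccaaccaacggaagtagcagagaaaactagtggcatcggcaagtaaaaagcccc
EMB3103: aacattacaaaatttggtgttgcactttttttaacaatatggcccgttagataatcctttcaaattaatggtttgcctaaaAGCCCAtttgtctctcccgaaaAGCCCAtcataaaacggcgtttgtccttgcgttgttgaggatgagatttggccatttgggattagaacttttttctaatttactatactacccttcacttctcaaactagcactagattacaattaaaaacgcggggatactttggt
AT1G02060 and CRR2 have 3 matches each and EMB3103 has 2. A match describes these letters only and shows no bound factor.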

How the data were processed

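Polyadenylated RNA was prepared with TRIZOL and a Lexogen SENSE kit, per the labels' protocols. The submitters' processing notes name bcl2fastq 2.17.1.14, HISAT2 2.1.0, HTSeq and DESeq2 (1.24.0 per the file headers) with the TAIR10 genome. Whether counting used strand is not given in the sources used here. A gene on the opposite strand overlaps 16 of the 57 members, with AT5G02830, AT4G14190, AT5G13770, AT5G52850 and OTP81 among them, and their values are uncertain. Signal values, as deposited, are the read count per gene divided by the library's size factor (a normalized count), set by the authors separately for 2018 and 2019. The authors' deposited log2 fold changes and adjusted p-values were used only for counts of calls. All values were whole multiples of 1 step per library (100% within 1e-06), so reads could be recovered. The 2018 libraries held 36714564 to 70561391 reads and the 2019 libraries 22611653 to 53908600.

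Tests used limma 3.58.1 (R 4.3.3) with an intensity trend on log2(normalized count + 1), so fold changes of low genes are understated, for genes at 10 or more in at least 3 libraries of the fit. P-values were adjusted over all genes tested by Benjamini-Hochberg and called under 0.05. Each comparison used its own batches, and differences of effects used all groups involved. Alternatives were edgeR 4.0.16 and DESeq2 1.42.0 on recovered reads, other scalings, filters (none, 50) and pseudocounts (0.5, 5), the batch number as a replicate block, and leaving out each library. Removal of length and GC trends, the comparison of 2019 WT groups and that of batch 3 were added after the data were seen. The fits were tested on simulated data with 200 changed genes.

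The labels' batch numbers pair libraries of different groups in batches 1 to 3 and 7 to 9. The deviations of same-batch libraries from their group mean had r of 0.14 to 0.68 in batches 1 to 3 and of 0.07 to 0.23 in batches 7 to 9. The members, gene lists and roles were chosen with earlier results of these data known. Named by rule were up to 10 called members per direction with the largest change (5 for differences), the 3 lowest p where none was called, the 5 highest and lowest by level per kb, and members with a listed role; others named were chosen after their values were seen. The reference was RefSeq TAIR10.1, linked by gene ID (27574 IDs matched).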

Additional observations from a re-analysis of the deposited data

Results flagged for a closer look

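The change against WT differed between the libraries labelled vcs-6 and the D153N line, by a test of the difference of effects, for 29 of 57 chloroplast PPR genes, beside 29.9% of 21805 genes. The vcs-6 effect was the lower one for DOT4 (a difference of -2.29 on the log2 scale), DYW1 (-1.60), CRR21 (-1.24), AT2G30100 (-1.24) and EMB2279 (-1.17), and it was the higher one for AT1G02060 (0.95). Each line has its own WT group, and batch, line and WT group cannot be told apart in this difference.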

How the results depend on the processing

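In the libraries labelled vcs-6, edgeR and DESeq2 called 30 members, like limma, and leaving out 1 library at a time gave 19 to 26. For the D153N line edgeR called 11 and DESeq2 12, while the replicate block gave 6 called members and leaving out 1 library at a time 0 to 10. For the D153N effect minus that of the overexpressors of unaltered DNE1, DESeq2 called 1 member, removal of length and GC trends 1, and leaving out 1 library 0 to 2. The cause was not tested. For the difference between vcs-6 and D153N effects, leaving out 1 library gave 23 to 29. The replicate block left the count of called members at 0 in dne1, OE1 and OE2, while over all genes it raised the calls from 30 to 268 in OE1 and from 37 to 253 in OE2. No paired analysis was possible for vcs-6 because its columns carry no batch number. Over the members named, 5219 alternative values kept their side of the threshold, 96 lost a call and 20 gained one, and none of the called values turned its sign. Only called values can lose a call, and most of the 5219 belong to values that were not called. In the D153N line AT4G35130 lost its call in 8 of 16 alternatives, RARE1 in 7 of 17, DOT4 in 6 of 16 and EMB3103 in 1 of 17. With 3 libraries per group, leaving out 1 also lowers the power of the test. Low counts limit DOT4, OTP80 and CRR4, which had as few as 7, 13 and 19 reads in a library.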
